A study of Elodea nuttallii and Chlamydomonas reinhardtii with 18 samples.

Results

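Cells of the green alga Chlamydomonas reinhardtii were compared between Babeni site 2 and Babeni site 1 of the River Olt. The comparison rests on the 6 libraries titled for these sites, 3 for each, among the 18 libraries of the series. The cells had been grown to mid-exponential phase in Tris-acetate-phosphate medium diluted 4-fold, and all groups were then held in the river for 2 h. The other 3 algal libraries came from Valcea, which the sample names call the control. They entered the fit so that the 3 sites shared 1 estimate of the spread, and their levels are given beside those of the Babeni sites. The sources used here give no strain, genotype, water chemistry or mercury concentration, although mercury toxicity in the field is the stated subject of the series. The labels leave unsaid whether libraries of 1 site were grown as separate cultures, so p-values measure the spread between libraries, which may be technical.

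Chlamydomonas is a unicellular, flagellated alga with a single large chloroplast, and a widely used model of photosynthesis and of metal responses. It can live by photosynthesis, by taking up acetate, or by both together, and it changes many transcripts within hours when light, carbon or metals change. Mercury is known to bind protein thiols and to disturb photosynthesis in algae. The deposited files list genes by identifier only and do not pair the identifiers with names. Gene lists for pathways, markers of the cell type and markers of gametes were therefore not looked up, and at most 4 genes are named by identifier. No sequence or annotation was used here, so reads shared with near-identical copies or overlapping genes were not checked.

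The Babeni libraries held 10322089 to 14097458 recovered reads, of which 3 reads amounted to 0.202 to 0.293 CPM. CPM is used for the values that the authors named so, which are read counts scaled by a factor of each library. They sum to 943616 to 1058460 over the 9 libraries and not to the same total in each. Log2 differences are site 2 minus site 1 on the log2(CPM + 0.5) scale, with a standard error (SE) from limma, and this scale understates the change of low genes. A gene was called higher or lower where limma's Benjamini-Hochberg adjusted p over all 13556 tested genes was under 0.05 and the difference was at least 2-fold. In these bulk samples fewer cells with a transcript and less of it per cell cannot be told apart.

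The 6 libraries differed in how closely they resembled each other, and this touches every result. The 3 libraries of site 2 were closely alike. Their log2 values correlated at 0.989 to 0.991, and they differed by a chi-square of 2.16 to 6.20 per gene, where sampling noise alone gives about 1. The 3 libraries of site 1 correlated at 0.947 to 0.970, with a chi-square of 58.5 to 81.9 per gene. By chi-square the Valcea libraries, at 23.6 to 53.6 per gene, also differed among themselves far more than those of site 2, whereas by correlation, at 0.985 to 0.993, they were near site 2. Replicates 1 and 3 of site 1 were the least alike pair, and replicate 2 lay between them, at 0.969 to replicate 1 and 0.970 to replicate 3. Against the site 2 libraries, replicate 1 correlated at 0.896 to 0.898, replicate 2 at 0.888 to 0.891 and replicate 3 at 0.863 to 0.866.

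Both directions of change were about equally common. By site means, the steepest change in each direction took a gene from under 1 CPM to over 178 CPM or the reverse. Of the 13556 tested genes 3491 were called, which is 25.8%. At site 2 1764 genes were higher (13.0%) and 1727 were lower (12.7%). The median over all tested genes was -0.03 on the log2 scale. The steepest increase was Cre17.g727300, at 0.357 ± 0.164 CPM at site 1 and 179 ± 6.26 CPM at site 2 (SD, n = 3). The steepest decrease was Cre05.g248400, at 434 ± 546 CPM at site 1 and 0.897 ± 0.285 CPM at site 2. Its site 1 mean was carried by replicate 3, at 1062.9 CPM, beside 83.1 and 156 CPM in replicates 1 and 2.

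These 2 genes, and the next in each direction, were taken as the largest differences among called genes with separate groups and at least 5 CPM in the higher site. Cre17.g727300 was at 0.404, 0.493 and 0.174 CPM in replicates 1, 2 and 3 of site 1, from 6, 6 and 2 reads. In site 2 it was at 185, 173 and 178 CPM, from 2127, 1965 and 1820 reads. The gene was thus close to silent in every library of site 1 and abundant in every library of site 2, and the groups did not overlap. At Valcea it was at 0.430, 0.756 and 0.590 CPM, also close to silent. The log2 difference between the Babeni sites was 7.73 ± 0.21 (SE, limma adjusted p = 1.41e-09). From the reads alone, 5912 at site 2 against 14 at site 1, the level was 491-fold higher, with a 95% exact interval of 293 to 899 that covers counting error only.

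The gene g13821 showed the same contrast from a low but measurable level. In site 1 it was at 3.503, 1.56 and 3.66 CPM, from 52, 19 and 42 reads, and in site 2 at 237, 235 and 219.9 CPM, from 2720, 2665 and 2253 reads. Every site 2 library lay far above every site 1 library, and the 3 site 2 libraries were close together. Valcea had 5.15, 4.25 and 3.98 CPM. The log2 difference between the Babeni sites was 6.15 ± 0.24 (SE, limma adjusted p = 1.59e-08). The summed reads gave a level 78.7-fold higher at site 2, with a 95% exact interval of 65.3 to 95.6 for counting error.

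The 2 genes with the steepest decreases, Cre05.g248400 and Cre05.g248450, carry neighbouring identifiers, with 0 other tested Cre05 identifiers between them. Identifiers that begin with g were ordered apart, so whether such a gene lies between the 2 was not tested. Cre05.g248400 was at 83.1, 156 and 1062.9 CPM in replicates 1, 2 and 3 of site 1 and at 0.959, 1.15 and 0.586 CPM in site 2. Cre05.g248450 was at 34.5, 51.8 and 662 CPM in site 1 and at 0.698, 1.06 and 1.17 CPM in site 2. In both genes replicate 3 of site 1 stood far above the other libraries of its site, by 12.8-fold over replicate 1 for Cre05.g248400 and 19.2-fold for Cre05.g248450. All 3 libraries of site 1 still lay above all of site 2, the lowest of them by 92.6-fold and 35.4-fold over the site 2 mean. At Valcea Cre05.g248400 was at 1030.3, 601 and 1195.5 CPM, and Cre05.g248450 at 801, 520.4 and 938 CPM. Replicate 3 of site 1 lay within that range for both genes, and replicates 1 and 2 lay below it.

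The log2 difference was -7.45 ± 0.68 for Cre05.g248400 and -6.19 ± 0.796 for Cre05.g248450 (SE, limma adjusted p = 5.02e-06 and 6.20e-05). Their SEs were about 3 times those of the 2 genes that rose, which had 0.21 and 0.24. Each SE rests on the spread shared by the 3 sites. It is therefore the same in every comparison of a gene and does not measure the wider spread of site 1 alone. In the fit of the 6 Babeni libraries alone the limma adjusted p was 9.4e-05 for Cre05.g248400 and 0.000647 for Cre05.g248450. Without replicate 3 of site 1 the differences were -6.38 and -4.87, and without replicate 1 they were -8.21 and -6.995. In the fit of all 9 libraries, site 2 against Valcea gave -9.36 ± 0.68 for Cre05.g248400 and -8.97 ± 0.796 for Cre05.g248450 (limma adjusted p = 5.13e-07 and 2.09e-06). Site 1 against Valcea gave -1.91 ± 0.68 and -2.78 ± 0.796 (limma adjusted p = 0.06 and 0.0263), so Cre05.g248400 did not pass 0.05 there. These comparisons share libraries with the one between the Babeni sites. Whether the 2 genes share reads was not tested.

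**Figure D1:**
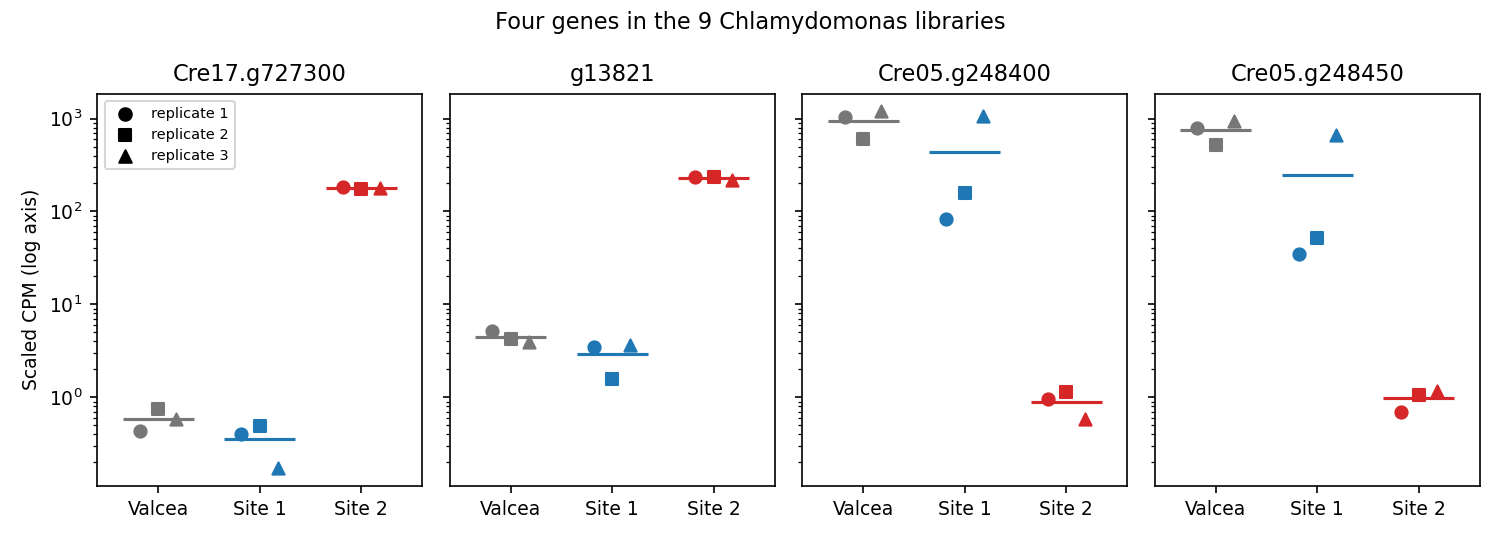
Level of the 4 genes in each of the 9 algal libraries, in scaled CPM on a log axis; points are libraries, with the replicate number by shape, and lines are site means. Cre17.g727300 and g13821 are low at Valcea and site 1 and high at site 2, while Cre05.g248400 and Cre05.g248450 are near 1 CPM at site 2 and spread widely over the site 1 libraries.

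The authors' deposited table of this comparison lists 3978 genes, 1895 higher and 2083 lower at site 2. It gives log2 fold changes of 8.90 for Cre17.g727300, 6.30 for g13821, -8.89 for Cre05.g248400 and -7.99 for Cre05.g248450, without a pseudocount stated. In all 3449 genes of the authors' deposited table were also called here, which is 86.7% of that table and 98.8% of the 3491 genes called here. The direction was opposite in 0 of these. Among the 529 genes in the authors' deposited table that were not called here, 390 had an adjusted p under 0.05 in limma but under a 2-fold difference, 132 did not pass the adjusted p, and 7 were not tested.

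Most called genes changed by less than 4-fold. Between 2-fold and 4-fold, 1359 genes were higher at site 2 and 1450 lower. Above that the balance moved toward increases, with 405 genes higher and 277 lower by 4-fold or more. At 8-fold or more 114 genes were higher and 55 lower, and at 16-fold or more 31 were higher and 17 lower. The counts at 8-fold depend on how low values are treated. They were 181 and 89 with a pseudocount of 0.1, 74 and 29 with a pseudocount of 2, and 179 and 116 by edgeR and 187 and 112 by DESeq2 on recovered reads. Increases outnumbered decreases at this fold under all 5 of these settings. Without replicate 1 of site 1 the genes lower by 8-fold or more numbered 88, and without replicate 3 of site 1 they numbered 44.

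The 20 steepest increases with at least 5 CPM at site 2 had log2 differences of 4.44 to 7.73. Their means ran from 0 to 59.1 CPM at site 1 (median 11.2 CPM) and from 13.2 to 1346 CPM at site 2 (median 264 CPM). The 20 steepest decreases had log2 differences of -7.45 to -3.92. Their means ran from 11.05 to 2286 CPM at site 1 (median 262 CPM) and from 0.274 to 81.4 CPM at site 2 (median 5.31 CPM). Genes with at most 3 reads in every library of a site and at least 5 CPM at the other were few. This cut leaves out Cre17.g727300, which had 6, 6 and 2 reads in the site 1 libraries. In 6 genes no site 1 library had more than 3 reads while the site 2 mean was at least 5 CPM, and it was at most 14.6 CPM. In 4 genes no site 2 library had more than 3 reads while the site 1 mean was at least 5 CPM, and it was at most 9.54 CPM. All 6 of the former and 3 of the latter were called.

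**Figure D2:**
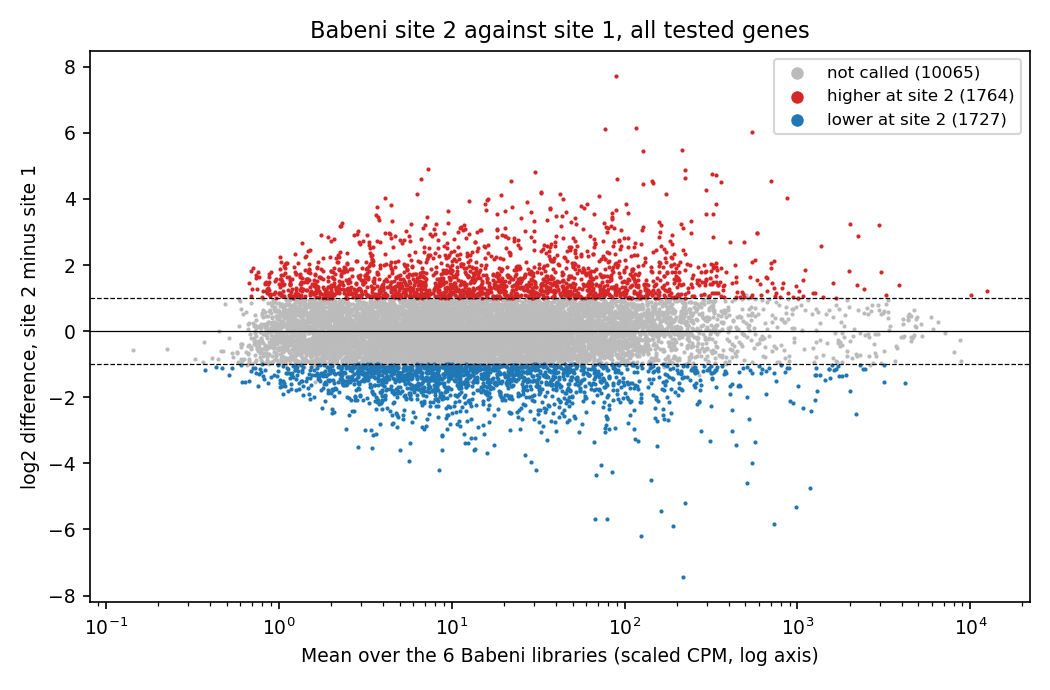
Log2 difference (site 2 minus site 1, on log2(CPM + 0.5)) against the mean of the 6 Babeni libraries in scaled CPM on a log axis, 1 point per tested gene; dashed lines mark 2-fold. The 1764 genes called higher and the 1727 called lower are spread over the whole range of levels.

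By level, the share of genes called differed by under 3 percentage points between directions in each band up to 100 CPM. It differed by more at 100 to 1000 CPM, toward increases, and above 1000 CPM, toward decreases. Of 3471 genes with a mean of 1 to 5 CPM over the Babeni libraries, 12.04% were higher and 11.6% lower at site 2. Of 4448 genes at 5 to 20 CPM, 11.2% were higher and 13.8% lower, and of 3848 genes at 20 to 100 CPM, 13.2% and 12.2%. Of 1334 genes at 100 to 1000 CPM, 286 were higher (21.4%) and 184 lower (13.8%). Of the 163 genes above 1000 CPM 22 were higher (13.5%) and 29 lower (17.8%). The difference above 1000 CPM thus rests on few genes, and it was not examined under other settings. The excess of increases at 100 to 1000 CPM depended on the setting. It was 237 higher against 221 lower with quantile normalization and 235 against 178 without replicate 3 of site 1. It was 312 against 163 with median centring and 317 against 156 without replicate 2 of site 1.

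Called genes of both directions together took 26.4%, 28.7% and 30.2% of reads in replicates 1, 2 and 3 of site 1 and 30.6% in each site 2 library, near their 25.8% share of tested genes. Genes called higher took 8.49%, 9.64% and 7.32% of the reads in replicates 1, 2 and 3 of site 1, and 24.2% in each of the 3 libraries of site 2. Genes called lower took 17.9%, 19.1% and 22.9% of the reads in site 1 and 6.35% to 6.42% in site 2. Since the calls chose these genes, the shares describe the size of the change and are no test of it. In the Valcea libraries, which the contrast does not use for the difference, the genes called higher took 7.11% to 7.95% of the reads and those called lower 19.4% to 21.2%. The Valcea shares lay close to those of site 1 and away from those of site 2.

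**Figure D3:**
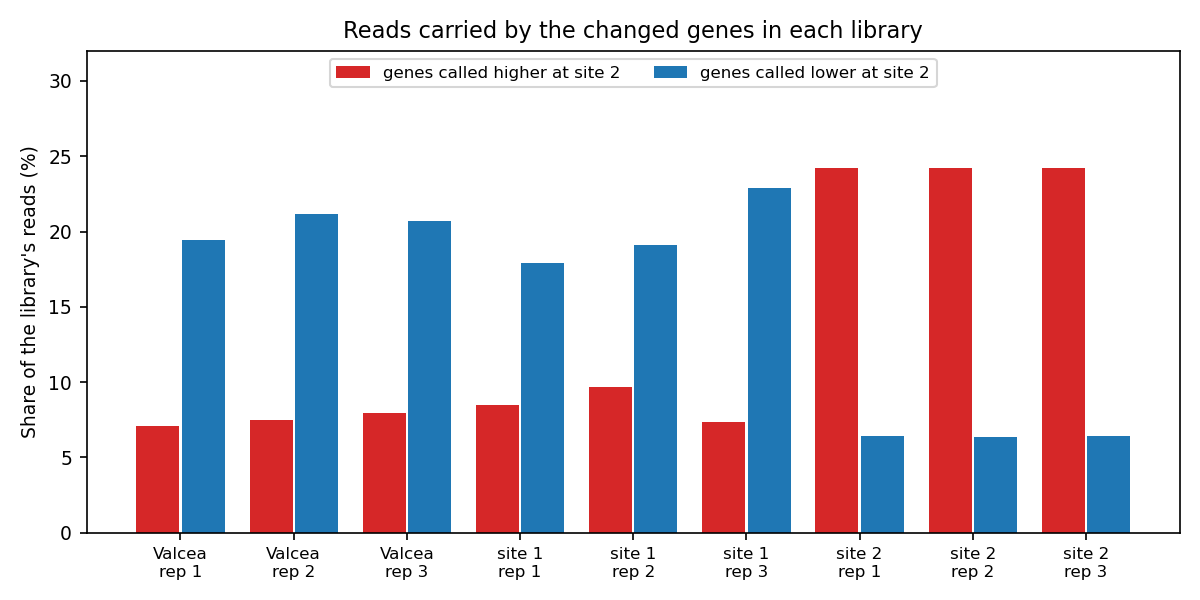
Share of each library's recovered reads, in percent, on genes called higher (red) and lower (blue) at site 2 against site 1, with 1 pair of bars per library. In the 3 site 2 libraries the red bar stands at 24.2% and the blue one at 6.42% or lower, and in every other library the blue bar is the taller.

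Whole libraries were compared between the sites by 4 properties, each with a test that cannot reach p under 0.1 with 3 libraries against 3. Genes with at least 1 CPM numbered 12846, 12684 and 12936 in site 1 and 12951, 12965 and 12917 in site 2, and the ranges overlapped (exact permutation test, two-sided, p = 0.2, adjusted over the 4 properties 0.4). The 100 genes with most reads took 37.5%, 35.4% and 38.6% of reads in site 1 and 36.6%, 36.9% and 36.5% in site 2 (exact permutation test, two-sided, p = 0.7, adjusted 0.9). The share of reads on identifiers that begin with g was 27.75% ± 0.798 in site 1 and 26.53% ± 0.213 in site 2 (SD, n = 3, exact permutation test, two-sided, p = 0.1, the smallest possible, adjusted 0.4), and the 3 site 1 values all lay above those of site 2. Genes at 0 reads numbered 21.3 ± 6.11 in site 1 and 23.3 ± 12.1 in site 2 (exact permutation test, two-sided, p = 0.9, adjusted 0.9).

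Almost every called gene had separate groups. Since the same libraries gave the calls, this describes the called genes and is no test of them. All 3 site 2 libraries lay above all 3 of site 1 in 3838 tested genes (28.3%), and all below in 4005 (29.5%). Among the genes called higher 1744 of 1764 had such separate groups, and among those called lower 1695 of 1727. A stricter reading asks each site 1 library to differ at least 2-fold from the site 2 mean. That held in 1052 of the 1764 genes called higher (59.6%) and in 962 of the 1727 called lower (55.7%).

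The site 1 libraries differed 2-fold or more among themselves in 2694 tested genes (19.9%), against 504 genes (3.72%) in site 2 and 627 (4.63%) at Valcea. The median SD of a gene over 3 libraries was 0.31 on the log2 scale in site 1, 0.13 in site 2 and 0.17 at Valcea. In 251 genes the site 1 range reached 4-fold, against 5 genes in site 2 and 13 at Valcea. In the 2694 genes with a wide range, replicate 2 was the middle library in 1556. Replicate 3 was highest with replicate 1 lowest in 967, and replicate 1 highest with replicate 3 lowest in 589. Of these genes 521 were called higher and 452 lower at site 2, so 973 of the 3491 calls were in genes that also varied 2-fold within site 1. In 555 of the 973, replicate 1 was the site 1 library nearest to the site 2 mean, against 171 for replicate 2 and 247 for replicate 3.

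**Figure D4:**
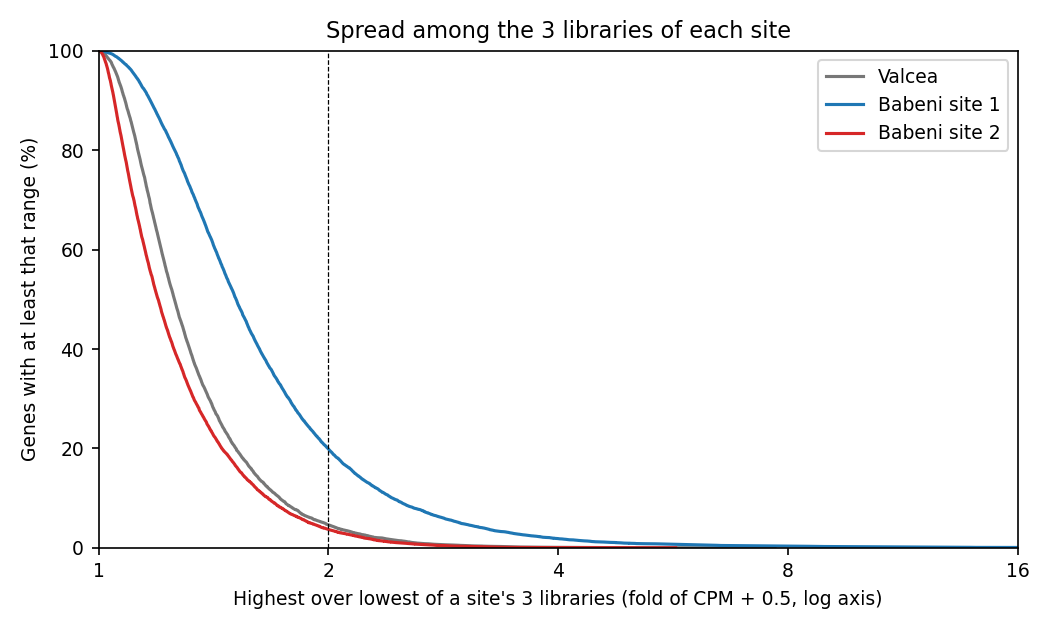
Percent of tested genes whose highest library exceeds the lowest of the same site by at least the fold on the log axis (fold of CPM + 0.5), 1 line per site. The site 1 line lies above both others, at 19.9% of genes for a 2-fold range against 3.72% in site 2.

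Each site 1 library was also set alone against the site 2 mean, as a description. Replicate 1 differed 2-fold or more in 3560 genes, replicate 2 in 3714 and replicate 3 in 4413. Leaving out replicate 3 lowered the number of called genes to 3290, of which 2994 were among the 3491. Leaving out replicate 1 raised it to 3825, of which 3224 were among them. No called gene turned its direction when any 1 of the 9 libraries was left out. In the many called genes with separate groups this could not happen, and leaving out a Valcea library does not change the difference. A weight per site estimated from the data, which lets site 1 have a larger variance, called 1737 genes higher and 1708 lower, and 3435 of these were among the 3491. What set the site 1 libraries apart was not tested, and the labels name no batch, day or culture for them.

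In the naming scheme of this alga the digits after Cre stand for a chromosome. Calls were spread over all 17 such prefixes and over the identifiers that begin with g alone. Of 10285 tested Cre identifiers 1317 were higher and 1347 lower, and of 3271 g identifiers 447 were higher and 380 lower. Most prefixes lay near the overall 25.8% called, from 23.1% for Cre14 to 30.1% for Cre05. Cre15, with 106 tested genes, was lower, with 7 genes higher and 6 lower (12.3% called). Cre05, with 246 tested genes, had the largest share of increases, 47 genes or 19.1%, beside 27 decreases. Cre08 had the smallest share of increases after Cre15, 39 of 394 (9.90%), beside 58 decreases (14.7%). These shares are descriptions, and no prefix was tested against the others.

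**Figure D5:**
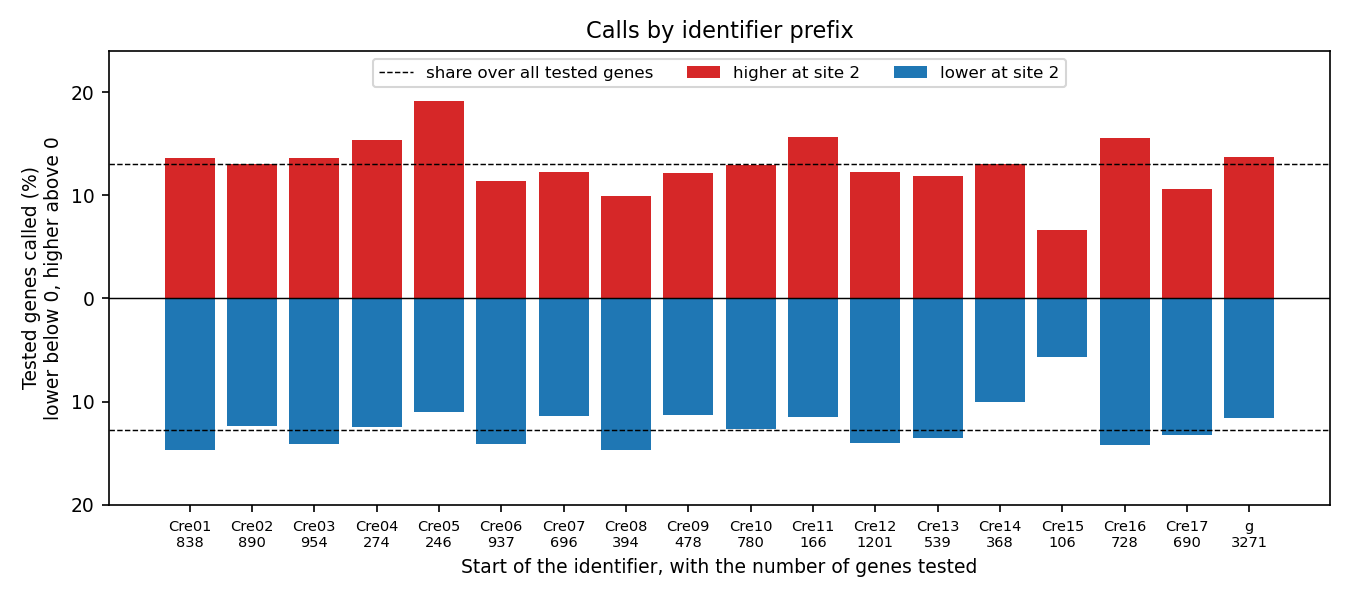
Percent of tested genes called higher (above 0) and lower (below 0) at site 2, by the start of the identifier, with the number tested under each name; dashed lines mark the shares over all tested genes, 13.0% and 12.7%. Cre15 stands low in both directions, and Cre05 has the tallest bar of increases.

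Genes with neighbouring identifiers were called in the same direction more often than the overall share. Where the preceding tested identifier was called higher, the gene was called higher in 327 of 1761 cases (18.6%), beside 13.0% over all genes. Where the preceding identifier was called lower, it was called lower in 318 of 1726 cases (18.4%), beside 12.7%. After a neighbour called in the opposite direction the shares were 10.6% for higher and 10.05% for lower. Neighbours were not tested for shared reads, overlap or sequence likeness. Identifier numbers were taken as order within each prefix, with g identifiers apart from Cre identifiers, and without coordinates.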

How the data were processed

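RNA extracted with TRI-Reagent was made into stranded mRNA libraries with a TruSeq kit, per the labels' protocols. Among tools, the submitters' processing notes list edgeR (version 3.4.2), HTSeq (0.5.3p9), TopHat2 (2.0.11) and BWA (0.7.10) with no role for any of them. Genome build and annotation: not given in the sources used here. For each gene and library the authors deposited a scaled signal, named edgeR CPM. Per the file headers, their table of this comparison holds log2 fold changes and mean log2 CPM with a p-value and FDR. Dividing by the value of 1 read gave whole reads, to a tolerance of 0.01, for 100% of values in every library. The plan assumed plain CPM, and the test planned for it was kept.

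Genes that reached 1 CPM in 3 or more of the 9 algal libraries (13556 of 13566) were fitted on log2(CPM + 0.5) in limma 3.58.1 (R 4.3.3), using a trended prior variance and no covariates. Groups were the 3 sites, taken from the titles, with 3 libraries each. Simulated data for this comparison held 13363 genes, with 50 genes changed at each of 2-fold, 3-fold, 4-fold and 8-fold. Of these, 38% were called at 2-fold, 98% at 3-fold and 100% at 4-fold and at 8-fold. The changed genes were drawn only from genes with a mean of at least 5 CPM, so the shares called do not cover lower genes. Among all calls in the simulation 4.55% were false (8 genes). These rates describe the simulation only, and whether they hold for the real libraries, whose sites differed in spread, was not tested. Alternatives were other pseudocounts, filters, scalings and sample sets, and count tests on recovered reads with DESeq2 1.42.0 and edgeR 4.0.16. Because the files pair identifiers with no names, the planned gene lists were not used, and the rule for named genes then gave 2 identifiers in each direction. The comparison, its rule and the lists were chosen with earlier results of these data known.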

Additional observations from a re-analysis of the deposited data

How the results depend on the processing

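Against 3491 called genes (1764 higher, 1727 lower), the total ranged from 2538 with a pseudocount of 2 to 3825 without replicate 1 of site 1 over the alternatives that kept the 2-fold minimum. Without that minimum, at an adjusted p under 0.05 alone, 6974 genes passed, 3376 higher and 3598 lower. Under that rule a gene that followed a higher identifier was higher in 29.2% of cases, beside 24.9% of all tested genes, and one that followed a lower identifier was lower in 31.1%, beside 26.5%. Leaving out 1 library at a time gave 3290 to 3825 called genes, 1701 to 1867 higher and 1589 to 1958 lower. By edgeR on recovered reads 1813 genes were higher and 2010 lower, and by DESeq2 1912 and 1912. Median centring gave 1951 and 1524, and quantile normalization 1757 and 1782. A weight per site and thinning of reads to the smallest library (3499 called) were chosen after seeing the data.

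With the replicate number as a block, 1771 genes were higher and 1738 lower. The deviations of same-numbered libraries of the Babeni sites from their site means correlated at 0.004, 0.03 and -0.01. The site 2 libraries deviated little from each other, so these values cannot show whether the numbers mark a shared day or culture. The 4 named genes passed in all 23 alternatives each, with adjusted p from 2.04e-145 to 0.000647, the last in the fit of the 6 Babeni libraries alone. Since they were picked as the largest differences in these same libraries, their passing was largely fixed in advance and is no test of them.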

Other observations

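Most called genes lay outside runs of successive identifiers called in the same direction. Runs of 3 or more held 164 of the 1764 increases (9.30%) and 146 of the 1727 decreases (8.45%), and how many such runs these shares of calls would give by themselves was not tested. Among increases there were 42 runs of 3, 7 runs of 4 and 2 runs of 5 genes, and among decreases 29 runs of 3, 12 runs of 4, 1 run of 5 and 1 run of 6. The run of 6, under the prefix Cre03, held moderate decreases with log2 differences of -1.68 to -1.06. A run of 5 increases under Cre10 had log2 differences of up to 3.61, and the run of 5 decreases under Cre01 spanned -3.40 to -1.13. These runs were picked after their values were seen, and overlap or sequence likeness of their members was not tested.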
